A study of Mus musculus with 4 samples.

Results

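The genes described here are 49 DNA replication genes, of the 32285 genes in the deposited matrices. They were taken by gene symbol from a list of parts of the DNA copying machinery, its nucleotide supply and its immediate regulators, and all 49 were present in every file. The study profiled muscle stem cells of mice by droplet single-cell RNA sequencing with 10x Genomics 3-prime chemistry. Each captured transcript end carries a unique molecular identifier (UMI), so a count is a number of molecules and is not scaled by transcript length. The question followed here is how the replication genes are distributed between cells that express little and cells that express much Myog, the transcription factor that marks the onset of muscle differentiation, and between cells with and without Pax7, the transcription factor of muscle stem cells.

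All 4 files carry the same labels: genotype MyoD-KI, skeletal muscle as the source, 5 days of culture in serum-containing growth medium and a sort for high MyoD-tdTomato signal. MyoD is the muscle determination factor encoded by Myod1, and tdTomato is a red fluorescent protein whose signal reports it in these knock-in mice. The population is therefore limited to cells inside a reporter gate, and the cells sorted for low signal were not analysed here. The labels used here give no strain, sex, age or number of animals. The files, labelled as replicates 1 to 4, held 62627341 to 68898900 UMIs each, and any pair shared 5946 to 5965 cell barcodes, or 99.9% of the smaller file. Over genes, a barcode's counts in 2 files had a median Pearson r of 0.787 to 0.793, against 0.652 to 0.656 for pairs of unlike barcodes. The files were counted as 1 sample of the same cells, so no p-value was computed. The range over files measures how well library sampling repeats, and intervals are exact 95% counting intervals at the mean count of 1 file. Neither covers how animals, cultures or sorts differ.

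Before a cell divides, it prepares each origin of replication by loading the ring-shaped helicase core Mcm2-7, a step called licensing that needs the origin recognition complex, Cdc6 and Cdt1. In S phase the rings are activated by Cdc45 and the GINS complex, and primase, polymerases, the sliding clamp and ligase copy the strands from nucleotides made by ribonucleotide reductase and its partners. Transcription of many of these genes is driven by E2F factors and held down by the retinoblastoma family when cells leave the cell cycle, and muscle progenitors leave it for good as they differentiate.

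Of 5944 barcodes found in all 4 files, 5481 had a mean of at least 1000 genes and under 10% mitochondrial UMIs and were kept. All 8 muscle markers examined reached at least 10 UMIs per 1000000 (CPM), while no marker examined of fibroblasts, endothelial cells, immune cells, glia or pericytes did, with Rgs5 the highest at 5.25 CPM. Of 2 tenocyte markers, Scx reached 92.2 CPM and Tnmd 0.0449 CPM. Cells were divided by their own Myog level. The class under 400 CPM, called Myog-low, held 2572 cells (46.9%), the intermediate class of 400 to 1500 CPM held 579 (10.6%) and the Myog-high class of at least 1500 CPM held 2330 (42.5%). Median depth was similar in the classes, at 10862, 11542 and 11094 UMIs per cell and file. A list of 29 mitosis genes that shares no gene with the 49 was used beside them, since the level of dividing-cell RNA differs between the Myog classes.

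Promoter sequences are shown for 3 of the genes because the 49 moved together across the Myog classes and their start regions can be searched for the E2F letters. Windows of 300 bases (250 before and 50 after each RefSeq transcription start, GRCm38.p6) were found for 41 of the 49 genes and for 27025 genes in all. The letters searched on both strands were TTTCCCGC, TTTCGCGC, TTTGCCGC and TTTGGCGC, which can overlap each other. They occurred in windows of 15 of the 41 genes (36.6%), against 2.61% of all genes with a window. The letters CCAAT occurred in 24 of the 41 (58.5%), against 41.1% of all genes, and TTTGAA, the core of an element found at mitosis genes, in 5 of the 41 (12.2%), against 20.2%. The 250 bases before the start of Mcm5 and Mcm6, helicase core subunits with several matches, and of Rrm1, with none, are printed 5′ to 3′ in the direction of transcription, with E2F letters in capitals. They lie at chr8:75109259-75109508 on the plus strand, chr1:128359706-128359955 on the minus strand and chr7:102441445-102441694 on the plus strand.
Mcm5: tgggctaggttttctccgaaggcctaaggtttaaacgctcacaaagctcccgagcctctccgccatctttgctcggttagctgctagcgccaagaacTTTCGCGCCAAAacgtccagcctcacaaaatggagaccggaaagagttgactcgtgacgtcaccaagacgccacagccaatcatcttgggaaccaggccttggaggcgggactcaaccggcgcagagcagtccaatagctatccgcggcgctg
Mcm6: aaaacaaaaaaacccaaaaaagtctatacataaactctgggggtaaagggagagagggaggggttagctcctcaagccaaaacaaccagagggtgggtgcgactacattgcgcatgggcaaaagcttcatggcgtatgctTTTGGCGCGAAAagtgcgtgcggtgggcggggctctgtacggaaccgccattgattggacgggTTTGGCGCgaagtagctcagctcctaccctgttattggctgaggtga
Rrm1: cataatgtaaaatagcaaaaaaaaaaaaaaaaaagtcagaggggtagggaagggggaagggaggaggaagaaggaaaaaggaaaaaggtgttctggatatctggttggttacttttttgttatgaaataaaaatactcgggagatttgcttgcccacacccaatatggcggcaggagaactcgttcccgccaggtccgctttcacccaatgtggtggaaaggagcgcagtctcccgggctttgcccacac
The matches of Mcm5 begin 153 and 149 bases before the start and overlap, as do those of Mcm6 at 110 and 106 bases, and Mcm6 has another at 47 bases. Cdc6 had the letters GCGGGAAA 138 bases before its start, and Orc1 had GCGCGAAA 27 bases before. Cdt1 had TTTGGCGC 32 bases after its start. Chaf1b, Tk1, Mcm10, Ung and Chaf1a, whose log2 ratios were also among the lowest of the 49, had no match in their windows. The 15 genes with the letters had a median log2 ratio of -2.20 between Myog-high and Myog-low cells, and the genes with a window but no match had -1.80. A match is a run of letters and was not tested for binding.

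All 49 replication genes were lower in Myog-high than in Myog-low cells by at least 2-fold, and every gene was in between in the intermediate class. Their summed level was 3269 CPM in Myog-low cells (interval 3248 to 3289), 2385 CPM in intermediate cells and 994 CPM in Myog-high cells (983 to 1006). In UMIs this was 38.4, 31.0 and 12.03 per cell and file. The log2 ratio of the summed level, Myog-high over Myog-low, was -1.72, and single genes ranged from -3.36 for Cdc6 to -1.01 for Rrm1, with a median of -2.004. Among 12913 genes with a mean of at least 50 UMIs per file over both classes, 21.9% were lower by at least 2-fold, and the median of all was -0.31. The intervals of 47 of the 49 genes lay wholly beyond 2-fold, and those of Pold2 and Rrm1 did not. The 4 files did not overlap between the classes for any of the 49, but they hold the same cells. The share of all tested genes that meets either of these marks is not given here, so neither count has a background beside it.

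Scalings that centre the bulk of genes, edgeR's TMM factors and median-of-ratios size factors, both moved all ratios up by 0.31. On these scales 44 of the 49 genes were lower by 2-fold and all 49 were still below 0, with Rrm1 at -0.70 and -0.69. The share of all tested genes called lower went from 21.9% to 15.7%, and the share called higher from 8.74% to 11.8% with TMM factors and 11.9% with median-of-ratios factors.

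**Figure D1:**
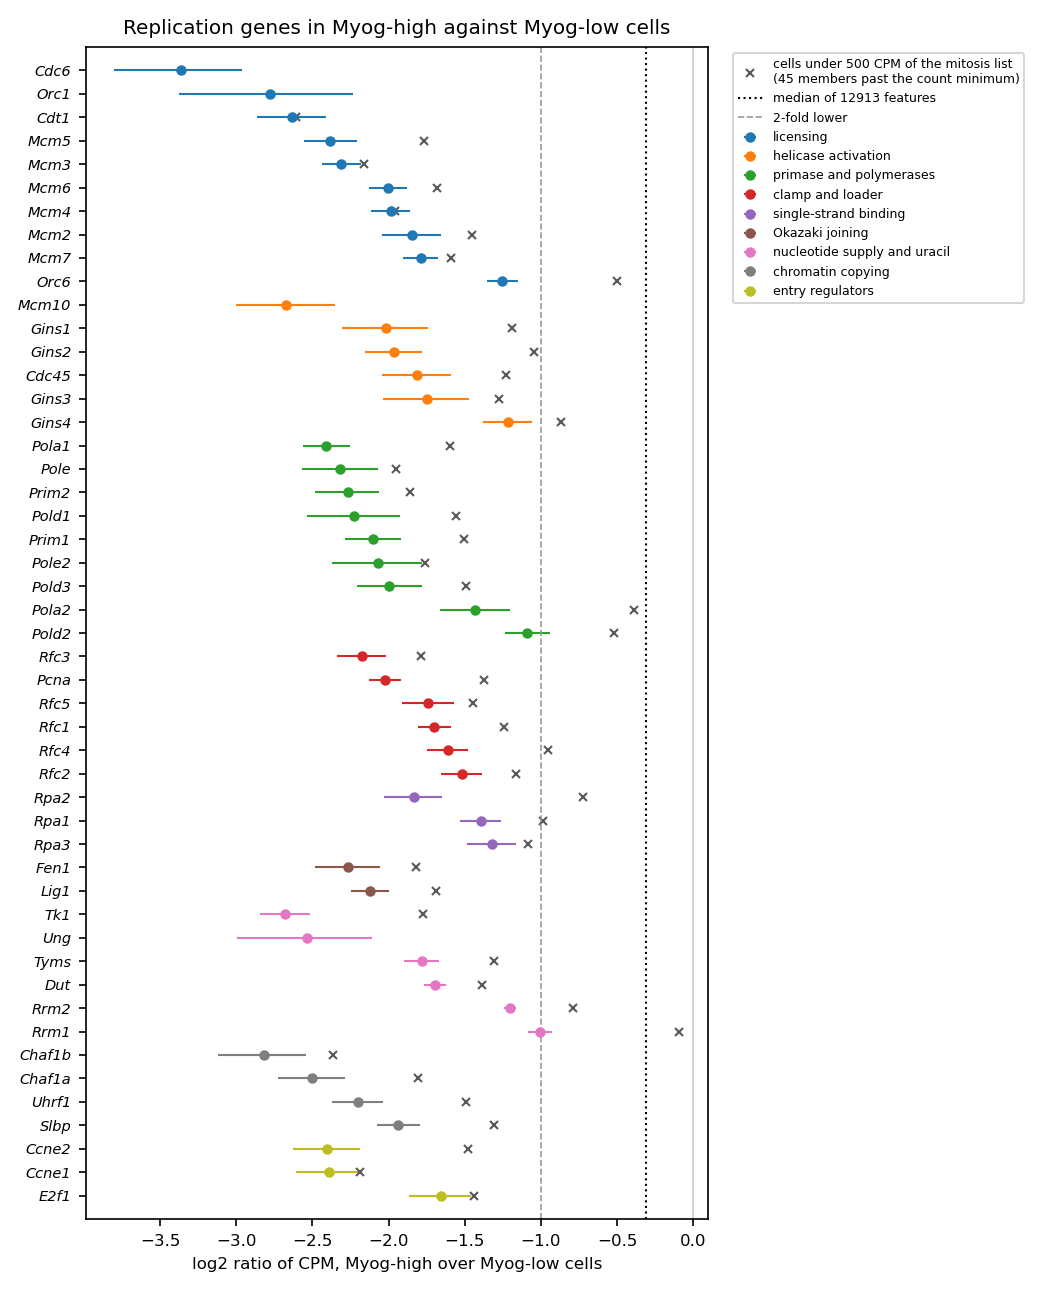
Log2 ratio of CPM between Myog-high and Myog-low cells for the 49 replication genes, in rows grouped by role. Points with bars are ratios with exact 95% counting intervals, crosses are the ratio among cells under 500 CPM of the mitosis list for the 45 genes past the count minimum, the dashed line marks 2-fold lower and the dotted line the median of 12913 genes. Every point lies to the left of the dotted line, with Cdc6 farthest at -3.36, and the cross of Rrm1 lies near 0 at -0.09.

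The genes of origin licensing held the lowest ratio of all. Positions beside gene names come from the GENCODE M21 annotation (GRCm38) through the Ensembl identifiers in the files. Cdc6 (ENSMUSG00000017499, chr11:98907801-98923940) encodes the ATPase that works with the origin recognition complex to load the helicase. Its level in Myog-low cells was 20.0, 18.3, 20.0 and 19.3 CPM in files 1 to 4, and in Myog-high cells 1.73, 1.75, 1.87 and 2.19 CPM. The classes were far apart in every file, with a log2 ratio of -3.36 (interval -3.80 to -2.96), so that 9.72% of the level remained. Orc1 (ENSMUSG00000028587, chr4:108579423-108614833), the largest subunit of the origin recognition complex and the least abundant of the 49 genes, was at 7.01, 7.79, 7.60 and 7.58 CPM in Myog-low cells. In Myog-high cells it was at 1.11, 1.07, 1.06 and 1.14 CPM, a log2 ratio of -2.78 (-3.37 to -2.23). Cdt1 (ENSMUSG00000006585, chr8:122568015-122573554), which brings Mcm2-7 to origins, is removed from cells by degradation once S phase starts. It read 41.0, 39.6, 40.8 and 42.0 CPM in Myog-low cells. In Myog-high cells it read 6.10, 6.71, 6.60 and 6.92 CPM, with a log2 ratio of -2.63 (-2.87 to -2.41).

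Orc6 (ENSMUSG00000031697, chr8:85299632-85308278), the smallest subunit of the same complex as Orc1, stayed closer to its Myog-low level. Its values were 94.9, 96.0, 98.1 and 97.1 CPM in Myog-low cells and 42.0, 40.8, 38.2 and 41.1 CPM in Myog-high cells. The log2 ratio was -1.25 (-1.35 to -1.15), and the intervals of Orc1 and Orc6 lay apart by a wide margin. The 6 helicase core genes formed a narrower band, from -2.38 for Mcm5 (60.4 to 11.6 CPM) to -1.79 for Mcm7 (96.2 to 27.9 CPM). Mcm3 was at -2.31, Mcm6 at -2.004, Mcm4 at -1.98 and Mcm2 at -1.85. The 10 licensing genes had a median of -2.16.

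Helicase activation covers Cdc45 and the 4 GINS subunits, which turn the loaded ring into a working helicase, and Mcm10, which is needed for that step. Mcm10 (ENSMUSG00000026669, chr2:4989714-5012791) was the lowest of them. It read 20.7, 21.0, 20.3 and 21.7 CPM in Myog-low cells and 3.29, 3.37, 3.32 and 3.18 CPM in Myog-high cells, a log2 ratio of -2.67 (-3.00 to -2.35). Gins4 (ENSMUSG00000031546, chr8:23226616-23237659) was the highest, although it sits in a complex with Gins1, Gins2 and Gins3. It read 36.7, 36.5, 35.5 and 38.1 CPM against 16.3, 15.3, 15.4 and 16.04 CPM, a log2 ratio of -1.22 (-1.38 to -1.06). The other GINS genes were at -2.02, -1.97 and -1.75, and Cdc45 was at -1.81. The files, which hold the same cells, did not overlap between the classes for any of these 6 genes. The share of all tested genes for which this holds is not given here.

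The polymerases showed the same unevenness within complexes. Pola1 and Pola2 encode the catalytic and the accessory subunit of polymerase alpha, which with the primase subunits Prim1 and Prim2 starts new strands. Pola1 was at -2.41, Prim2 at -2.27 and Prim1 at -2.10, whereas Pola2 was at -1.43 (20.8 to 7.70 CPM). For polymerase delta, which copies the lagging strand, the catalytic subunit gene Pold1 was at -2.23 and Pold3 at -1.996. The accessory subunit gene Pold2 (ENSMUSG00000020471, chr11:5872180-5878292) read 41.7, 40.7, 40.1 and 42.1 CPM in Myog-low cells and 19.6, 18.5, 20.0 and 19.3 CPM in Myog-high cells. Its log2 ratio of -1.09 (-1.24 to -0.94) was the second closest to 0 of the 49. The polymerase epsilon genes Pole and Pole2, of the leading-strand enzyme, were at -2.32 and -2.07 with overlapping intervals.

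The sliding clamp Pcna, the ring that holds polymerases on DNA, was at 136 CPM in Myog-low cells and 33.5 CPM in Myog-high cells, a log2 ratio of -2.02 (-2.13 to -1.92). Its loader, replication factor C, ran from -2.17 for Rfc3 to -1.52 for Rfc2, with Rfc5 at -1.74, Rfc1 at -1.70 and Rfc4 at -1.61. Replication protein A coats single-stranded DNA and also serves in repair, and its 3 genes had the highest median of any role group, -1.39. Rpa3 (ENSMUSG00000012483, chr6:8255936-8259173), its smallest subunit, read 39.8, 39.0, 38.8 and 38.1 CPM in Myog-low cells and 14.9, 16.2, 15.2 and 15.997 CPM in Myog-high cells, a log2 ratio of -1.32 (-1.48 to -1.16). Rpa1 was at -1.39 and Rpa2 at -1.84. Fen1 and Lig1, which trim and join the lagging-strand fragments, were at -2.27 and -2.12. Pcna has pseudogenes in the annotation, so reads could have been split between the copies.

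Nucleotide supply spanned a wide range. Tk1 (ENSMUSG00000025574, chr11:117815526-117826092), the thymidine kinase of the salvage route, read 80.3, 81.3, 77.9 and 80.2 CPM in Myog-low cells and 12.02, 13.9, 11.7 and 12.3 CPM in Myog-high cells. Its log2 ratio of -2.68 (-2.84 to -2.52) was the fourth lowest of the 49. Rrm1 (ENSMUSG00000030978, chr7:102441695-102469771) and Rrm2 (ENSMUSG00000020649, chr12:24708241-24714146) encode the subunits of ribonucleotide reductase, which makes the building blocks of DNA. Rrm2 was the most abundant of the 49 in UMIs. It read 555, 544, 551 and 554 CPM in Myog-low cells and 239, 242, 239 and 237 CPM in Myog-high cells, a log2 ratio of -1.20 (-1.24 to -1.16). Rrm1 read 137, 136, 142 and 137 CPM against 70.7, 68.2, 68.5 and 67.5 CPM, a log2 ratio of -1.01 (-1.08 to -0.93). It kept the largest part of its level, 49.8%, and was the only gene of the 49 that did not pass 2-fold in each of the 4 files. Tyms, which makes thymidylate, was at -1.78, Dut, which removes dUTP, at -1.69 and Ung, which cuts uracil out of DNA, at -2.54. Tyms also has a pseudogene in the annotation.

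Chromatin copying was among the lowest groups, with a median of -2.35. Chaf1b (ENSMUSG00000022945, chr16:93883901-93906115), a subunit of the factor that places histones on new DNA, read 28.7, 28.6, 28.4 and 28.0 CPM in Myog-low cells. In Myog-high cells it read 3.91, 3.68, 4.13 and 4.39 CPM, a log2 ratio of -2.82 (-3.12 to -2.54). Its value is uncertain in that another annotated gene overlaps it on the same strand. The partner subunit Chaf1a was at -2.50, with an interval that overlapped that of Chaf1b. Uhrf1, which helps copy DNA methylation, was at -2.20, and Slbp, which binds histone mRNA, at -1.93. Of the entry regulators, the cyclin genes Ccne1 and Ccne2 were at -2.39 and -2.40 and E2f1, the transcription factor, at -1.66.

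Ratios therefore differed between subunits of the same machine. Of 10 complexes with at least 2 genes on the list, the lowest and highest subunit had intervals apart in 8. These subunits were picked as extremes by the same ratios, which favours intervals that lie apart. The intervals cover counting error only, and no other sets of genes were set beside this count. The spread was 1.53 in the origin recognition complex, 1.14 in polymerase delta, 0.98 in polymerase alpha-primase, 0.80 in GINS, 0.66 in replication factor C, 0.59 in Mcm2-7, 0.52 in replication protein A and 0.20 in ribonucleotide reductase. Intervals overlapped in polymerase epsilon and in chromatin assembly factor 1, counted by their genes among the 49 only. Outside the 49, the polymerase epsilon genes Pole3 and Pole4 were at -0.84 (-0.94 to -0.74) and -0.53 (-0.64 to -0.42). Rbbp4, a partner of Chaf1a and Chaf1b, was at 0.21 (0.16 to 0.26), so both complexes were uneven with these genes included. No gene of the 49 kept more than 50% of its Myog-low level, the mark set for persistence, when levels were taken as CPM. That depends on the scaling, since Rrm1, Pold2, Rrm2, Gins4 and Orc6 kept more than 50% under both centring scalings, with log2 ratios between -0.94 and -0.69. Rrm1 lies at the mark, and its ratio was -0.985 without file 3 and -0.990 in thinned cells.

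In cells of intermediate Myog level the differences were small and of one direction. All 49 genes were below their Myog-low level, the intervals of 47 excluded equality, and those of Gins3 and E2f1 did not. The share of all genes tested that meets these marks is not given here, but all 49 also lay below the median of all genes tested. The median log2 ratio was -0.51, against -0.07 over all 12205 genes tested, and the range ran from -1.01 for Orc1 to -0.12 for E2f1. Only Orc1 was lower by 2-fold, against 3.85% of all genes tested, and it was not past that fold under either of the other scalings. Its values in files 1 to 4 were 4.67, 3.73, 2.38 and 4.11 CPM, so that files 2 and 3 passed 2-fold and files 1 and 4 did not. Mcm10 was at -0.89, Tk1 at -0.82 and Cdt1 at -0.79, whereas Rrm1 was at -0.20 and Gins4 at -0.23.

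Narrower Myog ranges placed the larger part of the difference. The summed level of the 49 genes was 3332 CPM under 100 CPM of Myog and 3091 CPM from 100 to 400. It was 2628 from 400 to 800, 2209 from 800 to 1500, 1493 from 1500 to 3000, 734 from 3000 to 6000 and 527 CPM at or above 6000. The largest step lay between the ranges of 1500 to 3000 and 3000 to 6000, where 49 of 49 genes were lower with a median log2 difference of -1.31. The step before it had a median of -0.68 and the step after it -0.52. Steps were not computed over all genes, so this count and these medians have no background beside them. The mitosis list moved with the 49 genes, from 3756 CPM in the lowest range to 474 CPM in the highest, and the share of cells with at least 500 CPM of it went from 72.5% to 9.94%. The part of it in the differences across ranges was not tested.

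In the 332 cells at or above 6000 CPM of Myog, Pold2 remained at 34.2% of its level in the lowest range, Orc6 at 34.1%, Gins4 at 30.9%, Rrm2 at 28.0% and Rrm1 at 27.1%. At the other end, Tk1 remained at 3.21% and Mcm3, a helicase core gene, at 4.73%. Cdc6 had 0 UMIs there in all 4 files. With a floor of 3 UMIs in 1 file, or 0.920 CPM, its level was at least 22.1-fold lower than the 20.3 CPM of the lowest range. Rrm2 was still the most abundant of the 49 in these cells, at 157 CPM.

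**Figure D2:**
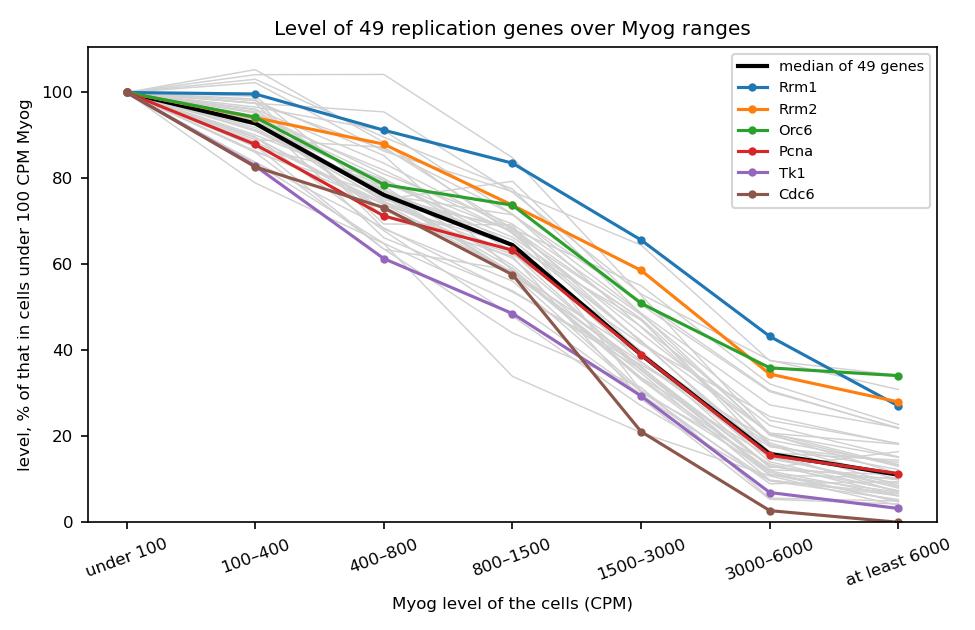
Level of each of the 49 replication genes over 7 ranges of Myog, in percent of its level in cells under 100 CPM of Myog, as means over the 4 files. Grey lines are single genes, the black line is their median and 6 genes are coloured. Orc6 ends at 34.1% and Cdc6 at 0. The largest median log2 step lies between the ranges of 1500 to 3000 and 3000 to 6000 CPM. On the linear axis shown, Cdc6 and Orc6 fall most 1 step earlier, from 800 to 1500 to 1500 to 3000 CPM.

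The Myog classes differed in how many of their cells carried mitosis RNA, so levels were compared within 3 classes of the mitosis list. Under 500 CPM of the list, the 49 genes summed to 1085 CPM in Myog-low, 821 in intermediate and 502 CPM in Myog-high cells. From 500 to 2500 CPM they summed to 3879, 2677 and 1630 CPM, and at 2500 CPM or more to 3883, 3316 and 2450 CPM. The order by Myog was the same in all 3 classes, and the files of neighbouring Myog classes did not overlap in any of them. Myog-high cells with 2500 CPM or more of the mitosis list still held more replication RNA than Myog-low cells with under 500 CPM. Of the 2330 Myog-high cells, 1670 (71.7%) had little mitosis RNA, 305 had an intermediate amount and 355 (15.2%) had much. These 355 cells held 42.6% of all replication gene UMIs of the Myog-high class.

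**Figure D3:**
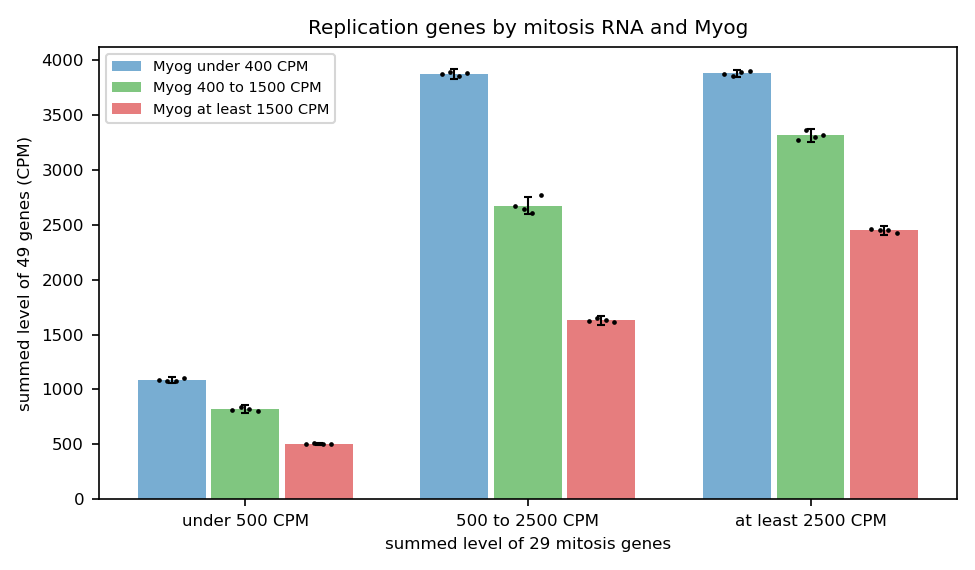
Summed level of the 49 replication genes in CPM, for 3 Myog classes within 3 classes of the mitosis list. Bars are means over 4 files of the same cells and start at 0, points are the files and error bars are exact 95% counting intervals. Within each mitosis class the bars descend from Myog-low to Myog-high, from 1085 to 502 CPM on the left and from 3883 to 2450 CPM on the right.

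Within cells with little mitosis RNA, 40 of the 49 genes were lower by 2-fold in Myog-high cells. Of these 40, 4 (Cdc6, Orc1, Mcm10 and Ung) had fewer than 50 UMIs per file over both classes, and among the 45 genes above that minimum 36 were lower, against 22.9% of all genes tested. The 9 genes that did not pass were Rrm1, Pola2, Orc6, Pold2, Rpa2, Rrm2, Gins4, Rfc4 and Rpa1. Rrm1 was at 46.1 CPM in Myog-low and 43.3 CPM in Myog-high cells, a log2 ratio of -0.09 (-0.28 to 0.11), which counting error does not separate from equality. Under the centring scalings its ratio turned to 0.25 and 0.26, and 27 of the 45 genes were lower by 2-fold, against 15.4% and 15.2% of all genes tested. The median of the 45 genes was -1.45 in CPM, and -1.11 and -1.10 under these scalings. Pola2 was at -0.39 (-0.89 to 0.13), Orc6 at -0.50 (-0.71 to -0.29) and Pold2 at -0.52 (-0.84 to -0.19). At the low end Cdt1 was at -2.61 (-3.07 to -2.17), as low as over all cells. Chaf1b was at -2.36, Ccne1 at -2.19 and Mcm3 at -2.16.

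Ratios were closer to 0 in the class with much mitosis RNA, but not in the intermediate class. In the intermediate class 40 of 49 genes were lower by 2-fold, against 12.3% of all genes tested, with a median of -1.47. In the class with much mitosis RNA, 18 of 49 were lower by 2-fold, against 9.61% of all genes tested, with a median of -0.80. Those 18 included 4 of the 10 licensing genes, namely Cdc6 (-2.29, interval -3.13 to -1.58), Orc1 (-2.05), Cdt1 (-1.85) and Mcm5 (-1.03). They also included both E-type cyclins, 3 of the 4 chromatin copying genes and none of the 3 genes of replication protein A. Rrm1 was at -0.22 (-0.34 to -0.10) in this class, from 176 to 151 CPM, and Mcm2, Mcm7 and Mcm4 were at -0.56, -0.56 and -0.67.

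Counted per cell at equal depth, most Myog-high cells held a few replication gene UMIs and some held many. Each cell was thinned to 5000 UMIs per file, which left out 174 Myog-low, 27 intermediate and 83 Myog-high cells. At least 10 UMIs of the 49 genes were found in 64.9% of Myog-low cells (interval 62.9 to 66.8), 48.0% of intermediate cells and 13.0% of Myog-high cells (11.6 to 14.5). Without thinning the shares were 76.9%, 70.1% and 33.4%. The median cell held 14, 9 and 3 UMIs, and no UMI of the 49 genes was found in 0.886%, 2.17% and 9.49% of cells. The 10% of cells with most UMIs of these genes held 22.4% of them in Myog-low cells and 38.2% in Myog-high cells. The mean per cell was 15.6 UMIs in Myog-low and 4.57 in Myog-high cells. Counting noise alone raises such a share at a lower mean, and its part was not tested.

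Among Myog-high cells the share with at least 10 UMIs was 1.01% where mitosis RNA was under 500 CPM, 23.2% where it was intermediate and 61.1% where it was 2500 CPM or more. Cells of the Myog-high class with at least 10 had a median of 13644 UMIs before thinning, and the others 11083. No doublet caller was used, and a doublet can carry both kinds of RNA. Without the 5% of cells with the most UMIs the share in Myog-high cells was 11.9%. The part of doublets in it was not tested further.

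**Figure D4:**
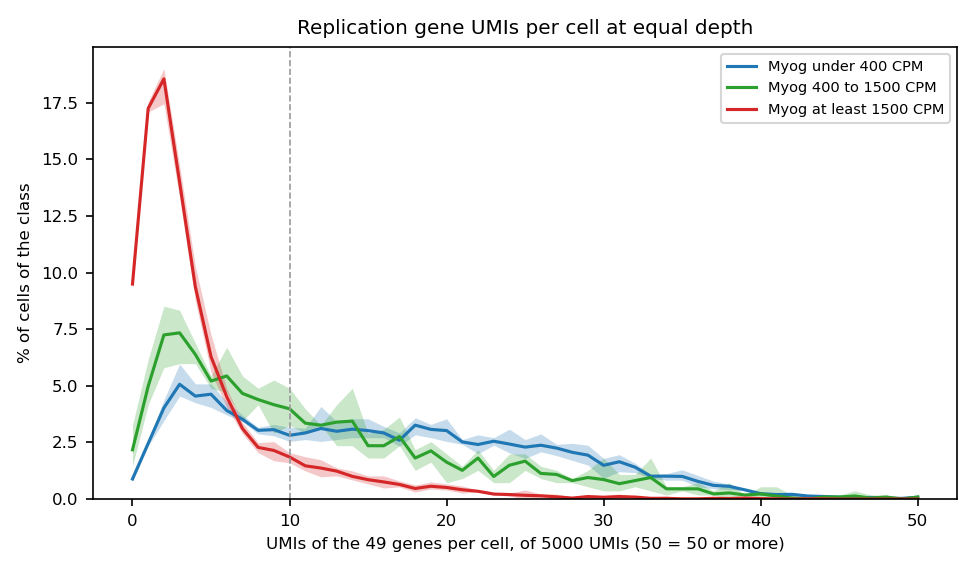
Distribution of replication gene UMIs per cell at an equal depth of 5000 UMIs, in percent of the cells of each Myog class. Lines are means over 4 files of the same cells, bands are the range over files and the dashed line marks 10 UMIs. The Myog-high curve peaks near 2 UMIs with 13.0% of cells at 10 or more, and the Myog-low curve is broad with 64.9% at 10 or more.

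Detection of single genes followed their levels, and in thinned cells the share of positive cells had the order Myog-low, intermediate, Myog-high for all 49. Without thinning E2f1 was the exception, with 25.4% of Myog-low and 25.5% of intermediate cells. The median gene was detected in 17.1%, 13.3% and 4.68% of thinned cells, and in 33.7%, 28.3% and 10.3% of cells without thinning. Rrm2 was detected most often, in 81.5% of Myog-low cells (79.9 to 83.1) and 52.8% of Myog-high cells (50.7 to 54.8). It was the only gene found in most Myog-high cells. Rrm1 followed with 44.3% and 25.6%, Dut with 59.3% and 23.2%, and Orc6 with 34.2% and 17.0%. In Myog-high cells 28 genes were found in under 5% of cells and 3 in under 1%, namely Cdc6 at 0.656%, Orc1 at 0.478% and Ung at 0.679%. No class of cells that should lack these transcripts was present, so the share given by free RNA in the droplets could not be read from these data.

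Pax7 was detected in 20.3% of thinned cells, and 84.4% of the cells with it were Myog-low, against 36.4% of those without. Over all cells, the 49 genes were each higher in cells with a Pax7 UMI, with a median log2 ratio of 0.60 against 0.21 over all genes tested. The intervals of Ung and Pold2 included 0 and those of the other 47 did not. The median of all genes tested was itself above 0, and 1 of the 49, Pold2 at 0.18, lay below it. The share of all genes with an interval above 0 is not given here. Orc1, at 1.00 (0.39 to 1.60), was the only gene higher by 2-fold, against 5.35% of all genes tested. Chaf1a was at 0.90, Pola1 at 0.87, Pcna at 0.61 and Rrm2 at 0.39 (0.32 to 0.45). Per cell, 14.1 of 5000 UMIs came from the 49 genes with Pax7 and 9.49 without.

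Within Myog-low cells this difference was not seen, and most ratios had the opposite sign. There 37.1% of cells had a Pax7 UMI, and the 49 genes took 14.8 of 5000 UMIs in cells with Pax7 and 16.1 in cells without. The median log2 ratio was -0.13, against 0.09 over all genes tested, with 40 genes below 0. None was higher by 2-fold, against 0.0973% of all genes tested. The intervals of 7 genes lay below 0, those of Pcna, Rpa2, Mcm7, Tyms, Dut, Rrm2 and Pold2, and no interval lay above 0. Of the 49 genes, 47 lay below the median of all genes tested. The share of all genes with an interval below 0 is not given here. Rrm2 read 480 CPM with Pax7 and 529 CPM without, a log2 ratio of -0.14 (-0.21 to -0.06), and Pcna read 121 and 139 CPM, a ratio of -0.20 (-0.36 to -0.05). The share of cells with at least 500 CPM of the mitosis list was 70.9% with Pax7 and 75.7% without, and its part in these ratios was not tested. In Myog-high cells 3.49% of cells had a Pax7 UMI, a mean of 78.5 cells per file. They held 7.87 UMIs of the 49 genes per 5000, against 4.46 in the others, and 56.6% against 27.2% of them had at least 500 CPM of the mitosis list.

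**Figure D5:**
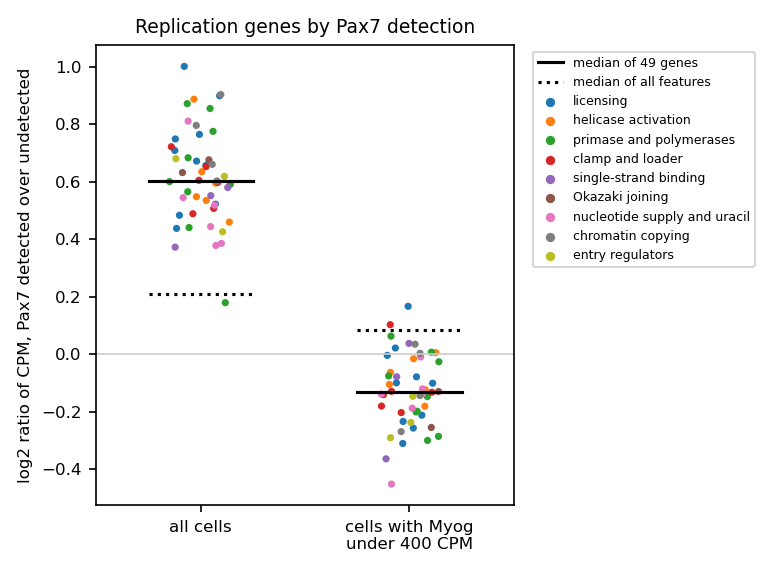
Log2 ratio of CPM between cells with and without a Pax7 UMI at 5000 UMIs per cell, for the 49 replication genes coloured by role, over all cells and within cells under 400 CPM of Myog. Solid lines are medians of the 49 genes and dotted lines medians of all genes tested. The genes lie above 0 over all cells, with a median of 0.60, and mostly below 0 within Myog-low cells, with a median of -0.13.

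A list of 53 other genes of DNA replication and its control was set beside the 49. In Myog-high cells 35 of the 53 were lower by 2-fold, against 21.9% of all genes tested. Their median log2 ratio was -1.39, less far from 0 than the -2.004 of the 49. On the centring scalings 28 of the 53 were lower by 2-fold, against 15.7% of all genes tested. The 3 lowest were Dtl, part of the ubiquitin ligase that removes Cdt1, at -3.10, Hells, a chromatin remodeller, at -3.09 and Timeless, which travels with the replication fork, at -3.03. E2f8, a repressor among the E2F factors, was the only one higher by 2-fold, against 8.74% of all genes tested. It was at 29.4 CPM in Myog-low and 64.6 CPM in Myog-high cells, a log2 ratio of 1.14 (1.02 to 1.25). The muscle gene Csrp3, downstream on the same strand, was at 1.94 CPM and 173 CPM in these classes, and its part in the E2f8 value was not tested. Pold4, a small subunit of polymerase delta, was at 0.27, and Rbbp4, a histone-binding partner of several complexes including that of Chaf1a and Chaf1b, was at 0.21. All 29 mitosis genes were lower by 2-fold in CPM, against 21.9% of all genes tested, with a median of -1.55.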

How the data were processed

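The 4 deposited files of 10x Genomics 3-prime v3.1 libraries give unnormalized counts of UMIs for every gene and barcode. Per the file headers, the authors made them with Cell Ranger 7.1.0. The submitters' processing notes name Cell Ranger 3.1.0 and the builds mm10 and GRCm39. The annotation, the barcode calling and the use of intronic reads are not given in the sources used here. Counting intronic reads would raise long genes.

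Values are means over the files, which hold the same cells (1 sample). Levels are UMIs per 1000000 UMIs of the cells. Ratios are log2 ratios of these levels without a pseudocount, over genes with a mean of at least 50 UMIs per file in the groups compared, leaving out Myog and Pax7. A gene was called at 2-fold. The 49 members, the other lists and the tests were chosen with earlier results of these data known. Genes with values by file are the 6 lowest and 6 highest by the Myog-high over Myog-low ratio, and of other replication genes the 3 lowest and 3 highest are named. Persistence means a ratio above 50%. Intervals are exact Poisson, Clopper-Pearson or conditional binomial, at 95%, and cover counting error only. For shares of cells and for Pax7, random thinning brought cells to 5000 UMIs in each file, which kept 5197 of 5481 cells. Total counts per file of 62627341 to 68898900 UMIs set the precision.

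Scaling alternatives used edgeR 4.0.16 (TMM) and DESeq2 1.42.0 (median-of-ratios factors) only for factors. Other alternatives changed the pseudocount, count minimum, Myog edges, cell filter, thinning depth, fold, Pax7 rule and mitosis edge, or left out each file. Leaving out the cells with the most UMIs, or those poor in Malat1, was chosen after seeing the data. Python 3.11.15, numpy 2.4.6, scipy 1.17.1 and pandas 2.3.3 were used, and the ratio and interval code was tested on simulated data. All 49 gene identifiers were found in GENCODE M21 (32158 of 32285 in all), which gave overlaps. Promoter windows come from RefSeq on GRCm38.p6, and the build of the authors' files may be another.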

Additional observations from a re-analysis of the deposited data

How the results depend on the processing

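Under the alternatives run, 44 (both centring scalings) to 49 of the 49 genes were lower by 2-fold in Myog-high cells. Their median log2 ratio was -1.70 with TMM factors, -1.69 with median-of-ratios factors, -2.75 with Myog edges of 200 and 3000 CPM and -2.16 without the 5% of cells with the most UMIs. The log2 ratio of the summed level was -1.41 under both scalings, -2.25 with the other Myog edges, -1.65 with a stricter cell filter (2000 genes, 5% mitochondrial UMIs), and -1.77 in thinned cells. The count of genes lower by 2-fold in intermediate cells, 1 as reported, was 0 under both scalings, with a pseudocount of 1 and as a mean over cells, 2 in thinned cells, 6 with the other Myog edges and 11 at 1.5-fold. The share of Myog-high cells with at least 10 replication gene UMIs was 5.95% with the other Myog edges and 15.3% with the stricter cell filter. Without the cells under 2000 CPM of Malat1 it was 11.3%. The cause of these shifts was not tested. No answering value changed sign: of 92 recomputed, 73 stayed within the set limits and 19 moved. Of 132 recomputed ratios of the 12 genes given by file, 35 moved and 0 changed sign. A single ratio or share counts as moved outside its own counting interval, and a count beyond 1.5 times. A median over genes counts as moved outside the medians of the single genes' interval limits. Those limits are not a counting interval of the median itself. Values with wide limits move less readily. Leaving out 1 file at a time kept all within these limits, although the 49 became 48 without file 3. The median in cells with little mitosis RNA, -1.45, ran from -1.67 (other Myog edges) to -1.10 (median-of-ratios factors). The medians of the single genes' limits were -1.97 and -0.96, so it did not count as moved. The Pax7 medians also stayed inside limits of that kind. The depth of 5000 UMIs limits genes such as Orc1, found in 3.52% of Myog-low cells.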

Other observations

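Subunits of the origin recognition complex outside the 49 genes, named after their values were seen, differed less from their Myog-low level than Orc1 and Orc6 did. Orc3 was at 31.1 CPM in Myog-low and 31.9 CPM in Myog-high cells, a log2 ratio of 0.04 (interval -0.10 to 0.17). Orc4 was at -0.03 (-0.15 to 0.09), Orc5 at -0.42 (-0.59 to -0.24) and Orc2 at -0.76 (-0.88 to -0.65), while Orc1 of the same complex was at -2.78 and Orc6 at -1.25. The centring scalings add 0.31 to each of these values, which turns Orc4 above 0 and leaves the order of the subunits as it is. In cells with little mitosis RNA, Orc2, Orc3, Orc4 and Orc5 had log2 ratios of -0.20, -0.05, -0.06 and -0.24 in CPM, each with an interval that includes 0. The centring scalings add 0.34 and 0.35 in this class. That moves the intervals of Orc3 and Orc4 wholly above 0, while those of Orc2 and Orc5 still include 0.

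E2f8 stood apart from the other replication genes in cells with little mitosis RNA. It was at 5.999 CPM in Myog-low and 63.0 CPM in Myog-high cells of that class, a log2 ratio of 3.39 (interval 2.94 to 3.88) that lay between 3.25 and 3.57 in the 4 files. Its relative E2f7, also a repressor, had a ratio of -2.75 (-4.12 to -1.54) in the same cells, with 19.8 UMIs per file in Myog-low and 8.50 in Myog-high cells. Csrp3, a gene of the muscle contractile apparatus that starts 18.4 kb downstream of the end of E2f8 on the same strand in GENCODE M21, was at 2.45 and 227 CPM in these cells. Whether transcripts from the neighbouring gene contribute to the E2f8 counts was not tested. Cdk2, the kinase partner of the E-type cyclins, was the other gene of the 53 higher by 2-fold in this class. It was at 5.56 and 13.3 CPM, with a log2 ratio of 1.26 (0.76 to 1.80). Of the 53 genes, 45 passed the count minimum in this class, and 2 of these were higher by 2-fold. Over all genes tested in this class, 8.997% were higher by 2-fold in CPM. Under the centring scalings that share was 12.35% and 12.6%, and the list still had 2.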
